A study of Mus musculus with 8 samples.

Results

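The comparison described here set 2 arrays of R1 mouse embryonic stem cells transfected with CnAb1 (2), the second small interfering RNA (siRNA) of the study, against 3 arrays of cells given a control siRNA. These 5 arrays were chosen by their titles, out of 8 in the series,. The cells of every group were of the R1 line, were grown under pluripotent conditions and were collected 48 hours after transfection, and the remaining 3 arrays held cells given CnAb1 (1), called siRNA 1 below. An siRNA is a short double-stranded RNA that directs the cleavage of a matching transcript. The sequences of the siRNAs were not analysed here. The titles speak of differentiation while the growth protocol and the series title speak of pluripotency, and the latter is followed. Nothing in the labels says that arrays of a group came from separate cultures, so the p-values below take the spread of these samples as their error, and it may be technical.

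Calcineurin is a phosphatase that is switched on by calcium and calmodulin. It is made of a catalytic and a regulatory subunit, and it is best known for removing phosphate from NFAT transcription factors, which then enter the nucleus. CnAb1 is a splice form of the beta catalytic subunit, encoded by Ppp3cb, with a C-terminal end of its own in place of the autoinhibitory domain, and it has been tied to signalling through mTOR complex 2 and Akt. In mouse embryonic stem cells, pluripotency rests on a network around Pou5f1, Sox2 and Nanog, and FGF, BMP, Nodal and Wnt signals steer the exit from that state.

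Each array gave a log2 value per probe set, and each gene was represented by its brightest probe set with a single symbol, which gave 19935 genes. Differences are siRNA 2 minus control on the log2 scale, with the standard error (SE) of a limma fit over all 8 arrays. A gene is called at an adjusted p under 0.05 (Benjamini-Hochberg over all genes). The array platform carries no detection call in the deposited values, so a dim gene cannot be said to be absent. In RNA taken from a whole culture, a smaller number of cells that express a gene and less of its RNA per cell cannot be told apart.

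The arrays carried the stem cell program that the labels name. All 13 stem cell identity markers, among them Pou5f1, Sox2, Nanog and Zfp42, lay above the median gene, with control means from 11.24 to 13.74, and their median difference with siRNA 2 was 0.009 (-0.047 and 0.024 on the 2 arrays). Over all genes the siRNA 2 arrays correlated with the controls at 0.99708 to 0.99831 and with each other at 0.99783. The controls correlated with each other more closely, at 0.99851 to 0.99888. The median SD over genes was 0.0558 for the 3 controls and 0.0603 for the 2 siRNA 2 arrays. SDs taken over 3 and over 2 arrays are not directly comparable, so these values do not show equal spread.

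Transfection of siRNA 2 was accompanied by small differences and by none that passed the test. Limma called 0 of 19935 genes (0%), and the smallest adjusted p was 0.369. An unadjusted p under 0.05 was reached by 1211 genes (6.07%), of which 510 read higher (2.56% of all genes) and 701 lower (3.52%). That balance of directions depends on the arrays: leaving out control replicate 1 gave 493 higher and 398 lower. Leaving out either siRNA 2 array also put the higher genes ahead, at 530 against 413 for replicate 1 and 490 against 468 for replicate 2. Among genes above the median gene it was 248 and 672. Both siRNA 2 arrays lay above all 3 controls for 2674 genes (13.4%) and below all 3 for 3178 genes (15.9%). The differences were narrow. Of all genes 106 were more than 1.2-fold higher and 189 more than 1.2-fold lower, 1 and 3 were beyond 1.5-fold, and 0 were beyond 2-fold. The 95% interval of the difference lay within 2-fold for 99.99% of genes, within 1.5-fold for 99.3% and within 1.2-fold for 59.6%. Leaving out control replicate 2 took the unadjusted count to 579, and leaving out siRNA 1 replicate 1 took it to 1979, although that array takes part only through the estimate of the spread.

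**Figure D1:**
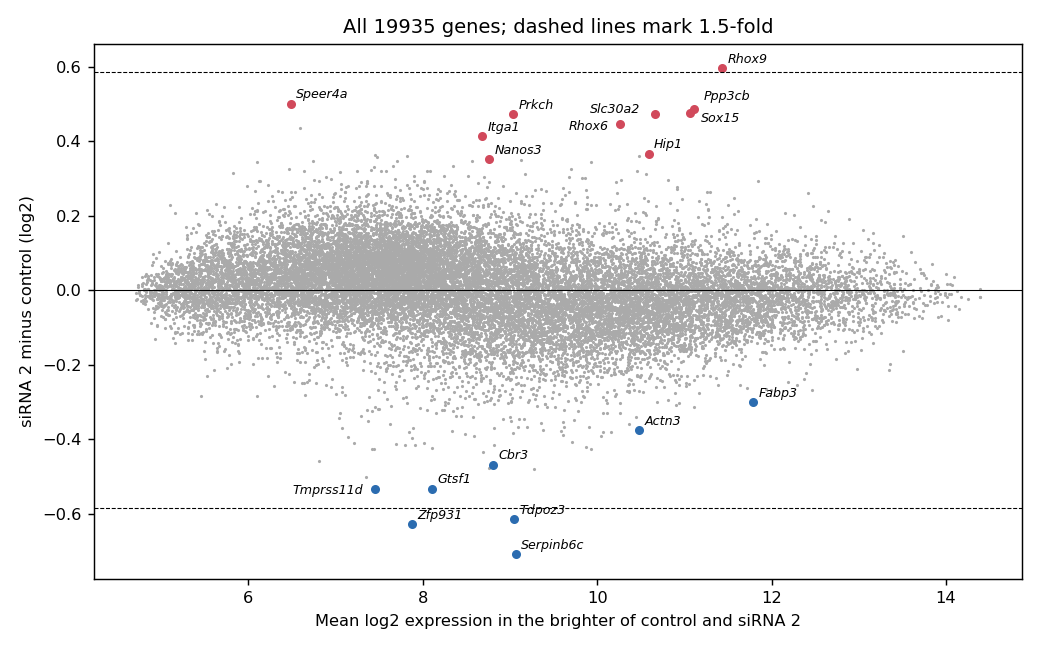
Each point is a gene, with its mean log2 expression in the brighter of the control and siRNA 2 groups on the x axis and its difference, siRNA 2 minus control (log2), on the y axis. Coloured points are named in the text, red where higher and blue where lower, and 4 genes lie beyond the dashed lines at 1.5-fold.

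Ppp3cb, the gene that holds the target, read 10.70, 10.55 and 10.64 on the control arrays and 11.07 and 11.16 on the siRNA 2 arrays. Both siRNA 2 values lay above every control, in the direction opposite to a loss of the transcript. The difference was 0.49 (SE 0.14, 95% interval 0.18 to 0.79, 1.40-fold), it was among the 5 largest on the higher side under the naming rule, and it did not pass in limma (adjusted p = 0.794). The siRNA 1 arrays read 10.52, 10.68 and 11.09, so replicate 3 of that group lay beside siRNA 2 and the other two beside the controls. siRNA 2 differed from siRNA 1 by 0.35 (SE 0.14, limma's adjusted p = 1). The probe set is annotated to the gene as a whole. Whether it measures the CnAb1 form was not tested, and the values are no check of the knockdown.

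The other calcineurin subunits lay near their control levels. Ppp3ca, the alpha catalytic subunit, read 10.04, 9.996 and 9.94 on the controls and 9.81 and 10.04 with siRNA 2, a difference of -0.07 (SE 0.08) that turned to 0.046 without siRNA 2 replicate 1. Ppp3r1, the widely expressed regulatory subunit, lay below the control range on both arrays by a small margin, at 10.70 and 10.74 against 10.77 to 10.82 (difference -0.08, SE 0.07). Ppp3r2, the testis form of that subunit, was dim and read 5.63 and 5.68 against 5.36 to 5.59 (0.16, SE 0.08). Ppp3cc, the testis-enriched catalytic subunit, lay at -0.03 (SE 0.07) from the controls, and this became 0.054 when siRNA 2 replicate 1 was left out and 0.004 when the lower quartile of each array entered the fit. The 13 measured calcineurin regulators and NFAT factors had a median of 0.069 (0.022 and 0.090 on the siRNA 2 arrays) beside 0.006 over all genes. Higher values were seen in 9 of them and lower values in 4, and 0 reached an unadjusted p under 0.05. Rcan3, of the family of calcineurin inhibitors, read 8.90 and 8.95 against 8.82 to 8.85, and Nfatc4 read 8.51 and 8.57 against 8.409 to 8.504.

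The smallest p belonged to Gtsf1, a factor that germ cells need to silence transposons with piRNAs. Gtsf1 read 8.08, 8.19 and 8.06 on the controls and 7.66 and 7.497 with siRNA 2, without overlap (difference -0.53, SE 0.07, adjusted p = 0.369 in limma, 0.691-fold). Its siRNA 1 values of 7.87, 7.88 and 7.88 lay between the 2 groups. The difference between the siRNAs was -0.30 (SE 0.07) with an unadjusted p of 0.00159 and did not pass in limma (adjusted p = 1).

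Serpinb6c, a gene of the serpin family of protease inhibitors, had the largest difference of all genes. It read 9.002, 9.09 and 9.12 on the controls and 8.24 and 8.48 with siRNA 2 (difference -0.71, SE 0.12, 95% interval -0.99 to -0.43, 0.612-fold, limma's adjusted p = 0.651). The siRNA 1 arrays spread from 8.69 to 9.16 and reached into the control range. Actn3, the alpha-actinin of fast muscle fibres, read 10.48, 10.52 and 10.44 against 10.12 and 10.09 (difference -0.38, SE 0.06), and its siRNA 1 values of 10.20 to 10.31 were also below the controls. Cbr3, a carbonyl reductase, read 8.78, 8.92 and 8.72 against 8.34 and 8.33 (-0.47, SE 0.09), and replicates 2 and 3 of siRNA 1 also lay below the controls.

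Other lower genes included both a fatty acid carrier and a retinoic acid carrier. Fabp3, a fatty acid-binding protein, read 11.84, 11.76 and 11.78 on the controls and 11.54 and 11.44 with siRNA 2 (difference -0.30, SE 0.06). With siRNA 1 it stood on the other side of the controls, at 11.90 to 12.01, and the difference between the siRNAs was -0.47 (SE 0.06, limma's adjusted p = 0.482). Crabp1, which binds retinoic acid in the cytoplasm, was placed the same way: 11.96 to 12.02 on the controls, 11.76 and 11.68 with siRNA 2 and 12.03 to 12.09 with siRNA 1. Its differences were -0.27 (SE 0.06) from control and -0.33 (SE 0.06) from siRNA 1. Decr1, a mitochondrial reductase used in the oxidation of unsaturated fatty acids, read 8.82 to 8.94 on the controls and 8.59 and 8.61 with siRNA 2 (-0.28, SE 0.06), and siRNA 1 differed from control by -0.01. Slc47a1, an exporter of organic cations, read 8.87 and 8.76 against 9.06 to 9.22 (-0.35, SE 0.07). Ano9, of the anoctamin family, read 9.16 and 9.26 against 9.52 to 9.65 (-0.39, SE 0.08). For Slc47a1 and Ano9 the siRNA 1 arrays also lay below every control, at differences of -0.28 and -0.25.

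The other lower genes named by p under the naming rule were Fam183b (-0.36, SE 0.07), Scrn1 (-0.37, SE 0.08), the piRNA factor Mael (-0.27, SE 0.06) and Napsa, an aspartic protease (-0.34, SE 0.08). For the 12 lower genes that the rule names by p, a group without Gtsf1, which is dimmer than the median gene, limma's adjusted p was 0.651 to 0.669, and none passed. All of them lay below every control on both siRNA 2 arrays because the rule asked for it, so that separation is no finding. Among the 5 largest lower differences the least certain was Zfp931, a zinc finger gene, with 6.98 and 7.52 against 7.56, 8.05 and 8.02 (-0.63, SE 0.31). Its interval, -1.33 to 0.07, spans 0. Tmprss11d, a membrane serine protease gene and dim here, read 7.02 and 6.82 against 7.28 to 7.59 (-0.53, SE 0.10).

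On the higher side the largest difference was that of Rhox9, an X-linked homeobox gene of the reproductive (Rhox) cluster. It read 10.86, 10.79 and 10.87 on the controls and 11.39 and 11.47 with siRNA 2 (difference 0.60, SE 0.14, 95% interval 0.29 to 0.90, 1.51-fold, limma's adjusted p = 0.669). Of the siRNA 1 arrays, replicates 1 and 2 read 10.84 and 10.82, inside the control range, and replicate 3 read 11.34. Its close relative Rhox6 read 10.29 and 10.22 against 9.95, 9.65 and 9.84 (0.45, SE 0.11). Rhox6 and Rhox9 are similar in sequence, so their probes may share signal. The 8 measured Rhox genes as a family had a median of -0.002, with 4 higher and 4 lower.

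Sox15, a Sox factor of stem cells, and Nanos3, an RNA-binding protein that keeps primordial germ cells alive, had the smallest p-values on the higher side. Sox15 read 10.504, 10.600 and 10.67 on the controls and 10.98 and 11.15 with siRNA 2 (0.48, SE 0.09, 1.39-fold), and 10.78 to 11.04 with siRNA 1. Nanos3 read 8.36, 8.37 and 8.499 against 8.77 and 8.75 (0.35, SE 0.06), and 8.56 to 8.63 with siRNA 1. In both genes siRNA 1 lay above the controls as well, and siRNA 2 did not pass as different from it (limma's adjusted p = 1).

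Itga1, the alpha 1 integrin that binds collagen, read 8.32, 8.29 and 8.20 on the controls and 8.59 and 8.78 with siRNA 2 (0.41, SE 0.09). Its siRNA 1 arrays, at 8.11 to 8.34, overlapped the controls, and the difference between the siRNAs was 0.43 (SE 0.09) with an unadjusted p of 0.000687 and an adjusted p of 1 in limma. Hip1, an endocytic adaptor, read 10.50 and 10.68 against 10.18 to 10.25 (0.37, SE 0.08), and siRNA 1 differed from control by 0.07. Slc30a2, a zinc exporter, read 10.64 and 10.68 against 10.14 to 10.22 (0.47, SE 0.11), and on the siRNA 1 arrays 10.37, 10.18 and 10.62, again with replicate 3 beside siRNA 2. Ddah1, which breaks down methylated arginine that inhibits nitric oxide synthase, read 11.82 and 11.87 against 11.52 to 11.58 (0.29, SE 0.06).

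Also higher by the rule were Gal3st3, a sulfotransferase (0.33, SE 0.07), the LIM protein gene Crip1 (0.24, SE 0.05), Zbtb10, a zinc finger repressor (0.29, SE 0.07), Pgap6, which acts on GPI-anchored proteins (0.30, SE 0.07), and Brpf3, a scaffold of histone acetyltransferase complexes (0.29, SE 0.07). Prkch, a protein kinase C, had one of the 5 largest differences (0.47, SE 0.14), with siRNA 2 replicates of 8.88 and 9.20 against 8.48 to 8.66. Speer4a was dim, at 6.43 and 6.54 against 5.87 to 6.10 (0.50, SE 0.15). For the higher genes from Rhox9 to Speer4a, Rhox6 included, limma's adjusted p ran from 0.651 to 0.798.

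**Figure D2:**
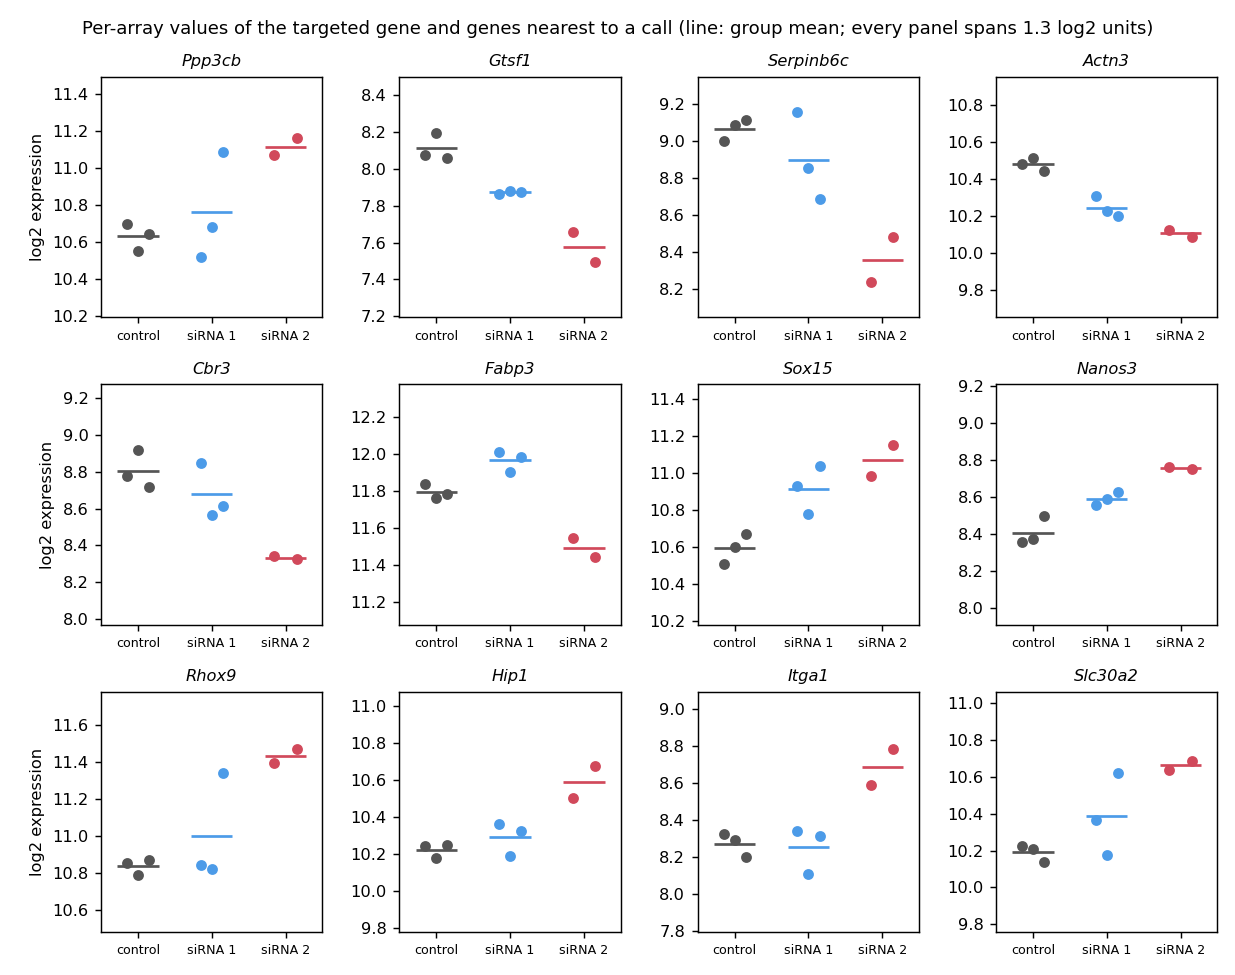
Log2 expression on each of the 8 arrays for Ppp3cb and 11 other named genes, by group, with a line at the group mean. The 11 are a selection. They include Gtsf1, which had the smallest p of all genes, but as a set they are not the 11 genes with the smallest p-values. Both siRNA 2 points lie outside the 3 control points in each panel, which the choice of these genes required, and siRNA 1 replicate 3 comes near the siRNA 2 points for Ppp3cb, Rhox9 and Slc30a2.

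Between the siRNAs limma called 0 of 19935 genes (0%), and 893 had an unadjusted p under 0.05 (4.48%). For siRNA 1 against the same controls the unadjusted share was 5.33%. No difference above is therefore shown to be particular to siRNA 2. With a trended and robust estimate of the spread 3 genes were called, all lower with siRNA 2 than with siRNA 1: Fabp3 (adjusted p = 0.0151, and 0.0151 to 1 across the alternatives), Crabp1 and the metallothionein gene Mt1 (both 0.0476, and 0.0476 to 1 across them). Mt1, which was named after its value was seen, had means of 12.44 in controls, 12.55 with siRNA 1 and 12.24 with siRNA 2. The comparisons of each siRNA with control share the control arrays, so their values are set side by side here and not against each other.

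A shift with brightness ran through the whole comparison and was seen on 1 of the 2 siRNA 2 arrays. When genes were ordered by mean expression and divided into 10 bins of equal size, the median difference was 0.046 in bin 3, where 71.3% of genes were higher, and -0.038 in bin 8, where 34.0% were higher. On siRNA 2 replicate 1 these medians were 0.092 and -0.070, and on replicate 2 they were 0.002 and -0.004. Replicate 2 stayed between -0.004 and 0.006 in all 10 bins. Among the controls, replicate 2 ran from -0.056 in bin 3 to 0.009 in bin 7 against the other controls. The lower quartile of siRNA 2 replicate 1 was 7.191 and that of replicate 2 was 7.112, with controls from 7.076 to 7.136. Because of this shift, the gene lists below are given with the median on each siRNA 2 array and with a bin-corrected median, for which the median of a gene's own bin was first subtracted.

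**Figure D3:**
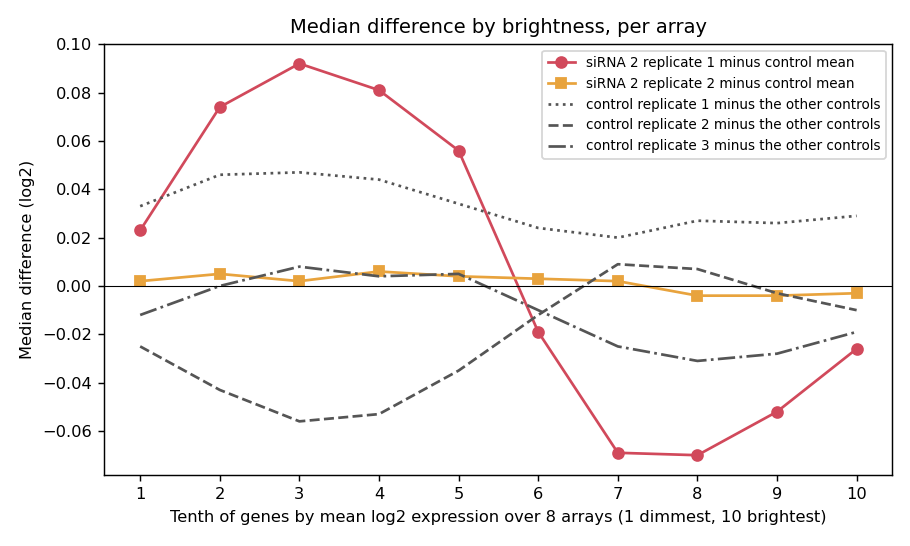
Median log2 difference in each of 10 equal bins of genes ordered by mean expression, from dimmest (1) to brightest (10), for each siRNA 2 array against the control mean and for each control array against the other controls. siRNA 2 replicate 1 goes from 0.092 in bin 3 to -0.070 in bin 8, and siRNA 2 replicate 2 stays near 0.

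Germ cell genes held several of the lower values. Of 28 measured germ cell and piRNA genes, 7 were lower at an unadjusted p under 0.05, against 3.52% of all genes, and 2 were higher, against 2.56%. The list was assembled with Gtsf1 and Nanos3 already known to stand out on these arrays, so these counts are not independent of that choice. Stra8, which starts meiosis in response to retinoic acid, read 7.09 and 7.10 against 7.41, 7.44 and 7.30 (-0.29, SE 0.06, adjusted p = 0.651 in limma) and was dim. Mael read 10.07 and 10.11 against 10.33, 10.44 and 10.32, and the 2 siRNA 2 arrays lay below all controls. The other lower genes, named after their values were seen, were Sycp3 of the synaptonemal complex, Rnf17, Piwil4 and Tex15, at -0.19 to -0.22. The list's median was -0.036, on the arrays -0.054 and -0.027, bin-corrected -0.034 and without control replicate 2 0.005, and 13 genes were higher and 15 lower. Dppa3, which protects maternal methylation marks in the early embryo and is also expressed in naive stem cells, was on the higher side, at 9.78 and 9.97 against 9.54 to 9.68 (0.27, SE 0.10).

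The DNA before the start sites of Gtsf1 and Mael is shown because these are the piRNA factors among the genes nearest to a call. The sequences are the 250 bases ahead of the start from RefSeq (GRCm38.p6), 5′ to 3′ on the strand of the gene, with capitals at the E-box letters CACGTG, which read the same on both strands and are the site of the MAX and MGA factors that hold germ cell genes silent in stem cells. Gtsf1 lies at chr15:103430428-103430677 on the minus strand and Mael at chr1:166238745-166238994 on the minus strand.
Gtsf1: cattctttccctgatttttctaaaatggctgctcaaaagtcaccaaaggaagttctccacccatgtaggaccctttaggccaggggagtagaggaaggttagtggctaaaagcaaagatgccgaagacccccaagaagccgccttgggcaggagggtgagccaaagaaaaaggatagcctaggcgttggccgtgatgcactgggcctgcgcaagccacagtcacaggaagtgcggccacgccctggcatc
Mael: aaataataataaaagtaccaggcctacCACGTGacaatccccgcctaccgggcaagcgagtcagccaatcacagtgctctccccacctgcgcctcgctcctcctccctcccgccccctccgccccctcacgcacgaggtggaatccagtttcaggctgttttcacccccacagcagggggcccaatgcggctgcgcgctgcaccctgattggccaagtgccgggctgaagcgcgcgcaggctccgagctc

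Mael holds 1 CACGTG, 223 to 218 bases before the start, and Gtsf1 holds 0 in this window. The same window was read for Stra8 and Nanos3, and each of them holds 0. These letters occur in 6.02% of the 32851 windows of the table. Of the 23 germ cell list genes that have a window, 10 hold them in at least 1 window. The first share counts windows and the second counts genes, so they are not like for like. A match is a description of the letters and says nothing of binding in these cells.

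Genes of the 2-cell-like state, transcribed in the rare stem cells that resemble the early embryo, were mostly lower. Of 10 measured genes 9 were lower and 1 was 0.003 higher, the median was -0.13, and the medians on the siRNA 2 arrays were -0.196 and -0.192. The bin-corrected median was -0.147. Leaving out control replicate 1 took the median to -0.246, and leaving out control replicate 2 took it to -0.084. An unadjusted p under 0.05 was reached by 3, all lower, against 3.52% of all genes. Tdpoz3 read 8.46 and 8.41 against 8.89, 9.30 and 8.95 (-0.61, SE 0.14, adjusted p = 0.669 in limma). Usp17lb, of a family of deubiquitinase genes, read 8.07 and 8.20 against 8.29, 8.70 and 8.35 (-0.31, SE 0.11), and Tdpoz2 read 7.98 and 7.92 against 8.08 to 8.35 (-0.23, SE 0.10). In all of them control replicate 2 was the highest array, and the mean over the list was 8.234 there against 7.878 and 8.020 on the other controls and 7.825 and 7.863 with siRNA 2. The siRNA 1 median of this list was -0.344. Members of the Usp17l and Tdpoz families are near-copies of each other, and signal between them may be shared.

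Pluripotency factors stayed close to the controls. The 34 core and naive factors, 13 of them higher and 21 lower, had a median of -0.018, which was -0.062 on siRNA 2 replicate 1, 0.012 on replicate 2 and -0.004 bin-corrected. Zfp42, a marker of the naive state, read 11.10 and 11.01 against 11.10 to 11.32 (-0.19, SE 0.09). Klf2, a naive-state factor, read 11.15 and 11.41 against 11.44 to 11.51 (-0.19, SE 0.08). Tcl1, an Akt coactivator, read 11.37 and 11.39 against 11.46 to 11.59, a difference of -0.13 (SE 0.06), and lay above the controls on the siRNA 1 arrays. Epcam, an adhesion molecule of stem cells, differed by -0.18 (SE 0.08), Alpl, alkaline phosphatase, by 0.13 (SE 0.06) and Utf1, a chromatin factor, by 0.15 (SE 0.07). Of 16 primed epiblast genes 11 were higher, with a median of 0.036, -0.022 on replicate 1, 0.073 on replicate 2 and 0.069 bin-corrected. Cldn6, a tight junction protein, read 12.58 and 12.70 against 12.34 to 12.52 (0.21, SE 0.08), and Nodal, the TGF-beta family ligand, 11.69 and 11.75 against 11.82 to 11.87 (-0.11, SE 0.06). None of these genes was called in limma.

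Among lineage lists the trophectoderm genes had 15 of 18 higher and a median of 0.062 (0.060 and 0.082 on the siRNA 2 arrays, 0.035 bin-corrected). Rhox6 and Rhox9 led that list, and Tfap2c, a transcription factor of trophoblast and germ cells, read 10.58 and 10.78 against 10.46 to 10.52 (0.19, SE 0.08). Plet1, a surface protein of the placenta, stood on the other side, at 10.10 and 10.01 against 10.23 to 10.31 (-0.22, SE 0.09). Of 24 primitive streak and mesoderm genes 16 were higher with a median of 0.057 (0.054 and 0.040, 0.048 bin-corrected). Gata2, a factor of blood and trophoblast, read 9.01 and 9.24 against 8.83 to 8.95 (0.24, SE 0.08), Mesp2 differed by 0.16 (SE 0.08), and Meis2, a homeobox gene, by -0.16 (SE 0.07). Neuroectoderm genes had a median of 0.040 over 18, 0.050 and -0.013 on the arrays and 0.015 bin-corrected, with Map2, a neuronal microtubule protein, at 8.72 and 8.79 against 8.935 to 8.999 (-0.21, SE 0.06) and the eye and brain factor Pax6 at 0.10 (SE 0.06). Endoderm genes had a median of -0.014 over 22 (-0.002 and -0.007 on the arrays, -0.006 bin-corrected). Sparc, a matrix protein of parietal endoderm, read 12.73 on both arrays against 12.55 to 12.62 (0.15, SE 0.06). Cubn, a receptor of visceral endoderm, differed by -0.38 with an SE of 0.25, its controls spread from 8.06 to 8.54. The number called was 0 in each of these lists.

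Of 15 BMP targets 3 were higher at an unadjusted p under 0.05 (Gata2, Smad6 and Nog), against 2.56% of all genes, and the median was 0.039 (0.034 and 0.037 on the arrays, 0.067 bin-corrected). The ligand gene Bmp4, counted with the mesoderm genes and Wnt targets, read 12.43 and 12.51 against 12.19 to 12.31 (0.23, SE 0.07). Smad6, the inhibitory Smad that BMP induces, read 8.45 and 8.44 against 8.24, 8.23 and 8.24 (0.21, SE 0.06), and Nog, a secreted BMP antagonist, read 8.30 and 8.33 against 8.07 to 8.21 (0.16, SE 0.06). Id4, an inhibitor of DNA binding and a BMP target, read 8.67 and 8.70 against 8.75 to 8.80 (-0.09, SE 0.05). Limma's adjusted p was 0.794 for Smad6, 0.798 for Bmp4 and 0.812 for Nog.

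FGF and ERK response genes leaned lower, 17 of 22, with a median of -0.066 that was -0.144 on siRNA 2 replicate 1, 0.026 on replicate 2 and -0.028 bin-corrected. Spry4, a feedback inhibitor of FGF signalling, read 11.20 and 11.32 against 11.44 to 11.54 (-0.23, SE 0.08), Ier2, an immediate early gene, 9.53 and 9.52 against 9.68 to 9.86 (-0.23, SE 0.09), Spry1 differed by -0.14 (SE 0.07) and Fos by -0.12 (SE 0.06). The 20 Wnt targets had a median of 0.032 (0.017 and 0.040 on the arrays, 0.029 bin-corrected). The 15 Nodal targets had a median of -0.014 (-0.010 and -0.014, -0.004 bin-corrected). Rnf43, a ligase that removes Wnt receptors, differed by 0.15 (SE 0.08), and Lefty2, a Nodal inhibitor, by -0.13 (SE 0.07). The median of the 19 Akt, mTOR complex and COG genes was -0.026, with -0.063 on replicate 1, 0.022 on replicate 2 and 0.002 bin-corrected, and 8 of them were higher. Akt1 read 10.88 and 10.96 against 10.71 to 10.77 (0.18, SE 0.08), and Cog6, a Golgi tethering subunit, differed by -0.12 (SE 0.08). FoxO factors are held in check by Akt, and their 20 targets had a median of -0.042, -0.081 on replicate 1, -0.002 on replicate 2 and -0.037 bin-corrected. Ccng2, a cyclin-like FoxO target, read 8.19 and 8.40 against 8.49 to 8.73 (-0.29, SE 0.11), and Sesn3 read 10.06 and 10.16 against 10.27 to 10.31 (-0.17, SE 0.07).

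Apart from the unfolded protein response genes, which leaned lower, metabolic and stress lists held single genes with larger differences and medians near 0. Psph, the last enzyme of serine synthesis, read 9.55 and 9.47 against 9.73 to 9.84 (-0.25, SE 0.06, limma's adjusted p = 0.708), while the 15 serine and one-carbon genes had a median of -0.031 (-0.023 and -0.001 on the arrays, -0.002 bin-corrected). Of 20 unfolded protein response genes 16 were lower, with a median of -0.058, -0.075 and -0.039 on the arrays, -0.032 bin-corrected, and 0 at an unadjusted p under 0.05. Creld2, a stress-induced protein of the endoplasmic reticulum, differed by -0.13 (SE 0.06) and Manf by -0.09 (SE 0.06). Among 24 ATF4 and amino acid response genes the median was -0.011 (-0.013 and -0.010, 0.002 bin-corrected). Cebpb, a transcription factor, read 8.71 and 8.78 against 8.46 to 8.59 (0.23, SE 0.07), and Nupr1, a stress-induced chromatin protein, 8.90 and 8.93 against 9.04 to 9.19 (-0.18, SE 0.06). Of 20 cholesterol synthesis and uptake genes 14 were lower with a median of -0.036 (-0.073 and 0.018 on the arrays, -0.011 bin-corrected). Sc5d and Msmo1, sterol oxidases of the pathway, differed by -0.19 (SE 0.07) and -0.18 (SE 0.06), both below every control on both arrays. The 22 glycolysis and hypoxia genes had a median of -0.004 (-0.016 and 0.009, 0.005 bin-corrected), and the 11 heat shock genes had one of -0.013 (-0.020 and 0.015, 0.001 bin-corrected).

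RNA sensing was looked at because transfected double-stranded RNA can set off an interferon response. Of 28 interferon and RNA sensing genes 18 were higher with a median of 0.031 (0.020 and 0.047 on the arrays, 0.007 bin-corrected). An unadjusted p under 0.05 was reached on the higher side by 1 of them, a share near the 2.56% of all genes. Oasl1, an inhibitor of interferon production, read 8.87 and 8.78 against 8.62 to 8.74 (0.15, SE 0.07), and Eif2ak2, the double-stranded RNA sensor PKR, read 8.70 and 8.83 against 8.97 to 9.08 (-0.24, SE 0.14). The 18 genes of small RNA processing had a median of 0.016 (-0.034 and 0.063 on the arrays, 0.035 bin-corrected), with Dgcr8, the partner of Drosha, at 0.12 (SE 0.05), Dicer1 at 0.10 (SE 0.06) and Prkra, a Dicer cofactor, at -0.13 (SE 0.06). Controls were transfected too, so these values do not measure a response common to all transfected cells.

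Growth and survival genes differed little. The 31 cell cycle genes had a median of -0.020 (-0.034 and -0.006, -0.006 bin-corrected), with Cdk1, the mitotic kinase, at 12.38 and 12.30 against 12.42 to 12.51 (-0.14, SE 0.06). The 17 p53 targets had a median of 0.009 (0.027 and 0.038 on the arrays, 0.028 bin-corrected). The 19 apoptosis regulators had a median of 0.009 too (-0.021 and 0.036, -0.004 bin-corrected). Birc3, an inhibitor of apoptosis protein, read 8.46 and 8.38 against 8.17 to 8.18 (0.24, SE 0.06, limma's adjusted p = 0.709), and lay above the controls on the siRNA 1 arrays as well. Apaf1, the core of the apoptosome, differed by -0.18 (SE 0.09). Among 20 imprinted genes with a median of 0.008 (-0.027 and 0.007, 0.034 bin-corrected), Phlda2, a growth restrainer of the placenta, read 13.16 and 13.10 against 13.29 to 13.37 (-0.21, SE 0.06), Nnat differed by -0.16 (SE 0.06) and Magel2 by 0.18 (SE 0.08). The 29 chromatin writers and TET erasers had a median of 0.006 (-0.024 and 0.039, 0.022 bin-corrected), with the histone demethylase gene Kdm4c at -0.21 (SE 0.09). The number called was 0 in each list.

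**Figure D4:**
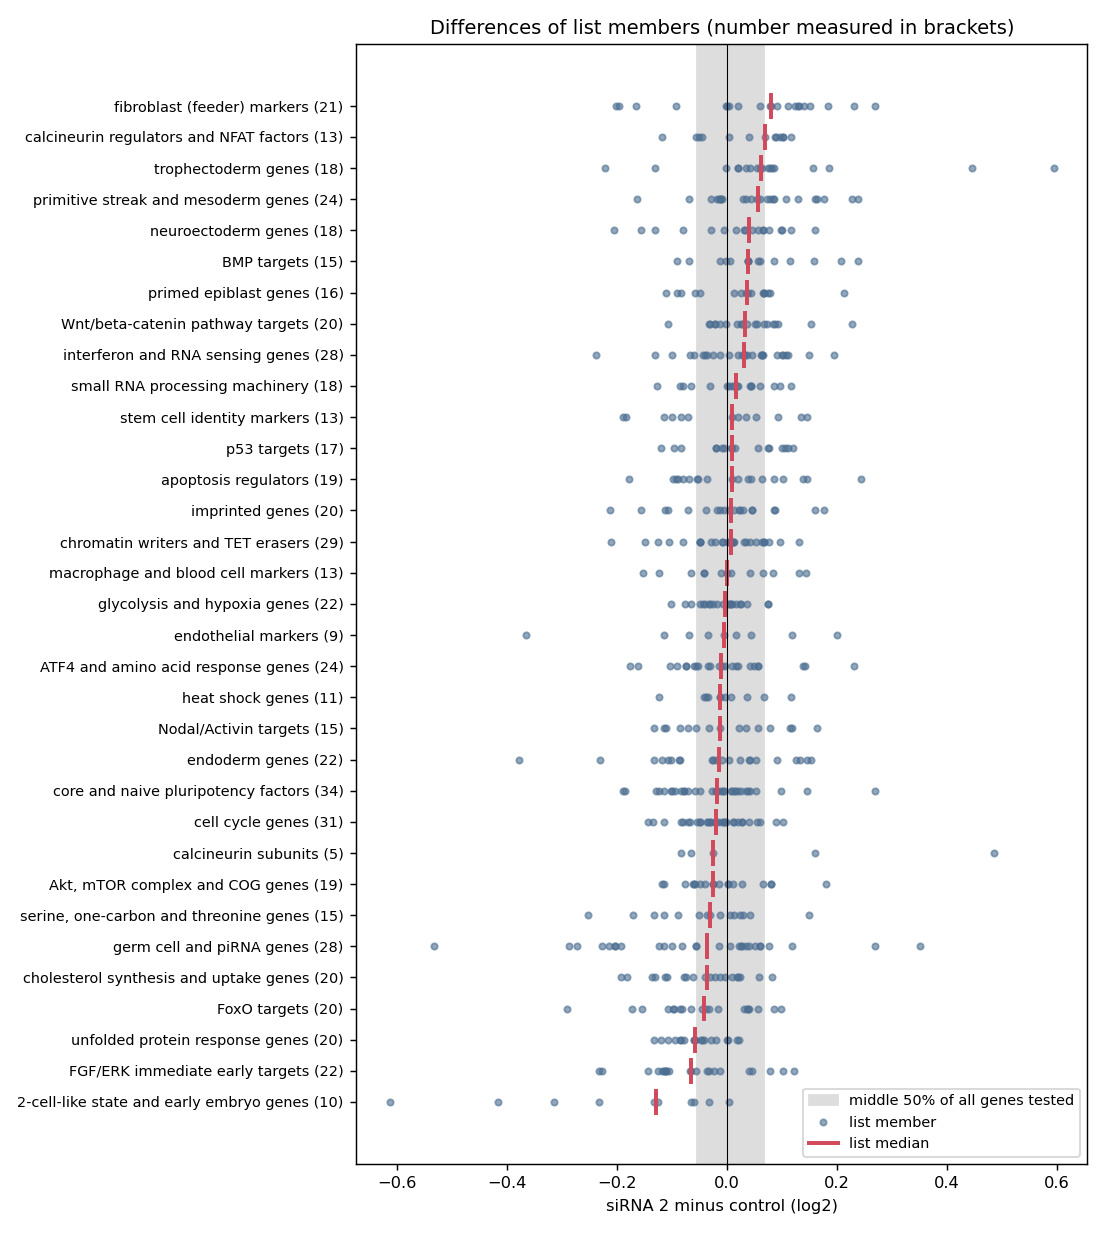
Differences, siRNA 2 minus control (log2), of every measured member of the gene lists, with the list median in red, the number of members in brackets and the middle 50% of all 19935 genes in grey (-0.054 to 0.067). The list medians run from -0.13 for the 2-cell-like state genes to 0.080 for fibroblast markers. The grey band shows the spread of single genes and is no measure of how far a list median can move.

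Markers of other cells were measured beside these groups. The 21 fibroblast markers, of the feeder cells on which stem cells can be grown, had a median of 0.080 (0.110 and 0.046 on the arrays, 0.084 bin-corrected), 15 higher and 6 lower, and their mean level was 9.162 and 9.158 with siRNA 2 against 9.037 to 9.169 on the controls, which overlap. Acta2, smooth muscle actin, read 11.18 and 11.32 against 10.86 to 11.15 (0.23, SE 0.11), Col1a1 differed by 0.13 (SE 0.06), and Twist1 by -0.20 (SE 0.07). Of 13 macrophage and blood cell markers 11 lay below the median gene, their median difference was -0.001 (0.002 and 0.037 on the arrays, -0.047 bin-corrected), and their mean level was 7.800 and 7.869 against 7.691 to 7.907. The 9 endothelial markers had a median of -0.006 (0.012 and -0.064, -0.032 bin-corrected). Tek, the angiopoietin receptor, read 8.75 and 8.92 against 9.09 to 9.27 (-0.37, SE 0.09, limma's adjusted p = 0.67) and Esam, an adhesion molecule, 8.77 and 8.92 against 8.54 to 8.70 (0.20, SE 0.08). The part of such cells in the differences above was not tested.

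Gene families grouped by their symbols showed which classes leaned the same way on both siRNA 2 arrays. Over all genes 52.9% were higher and 47.1% lower, and the median was 0.006. Of 40 proteasome subunits 31 were lower, with a median of -0.062, -0.048 on siRNA 2 replicate 1 and -0.066 on replicate 2. Of 77 mitochondrial ribosomal proteins 58 were lower (-0.059, with -0.083 and -0.044), of 60 cytosolic ribosomal proteins 48 (-0.033, with -0.042 and -0.029) and of 49 genes with the symbols of translation initiation factors 39 (-0.034, with -0.035 and -0.036). Small nucleolar RNAs, which guide the modification of ribosomal RNA, were lower for 37 of 51 (-0.080, with -0.038 and -0.056). Both siRNA 2 arrays are set against the same control mean, and the controls also spread. Mean proteasome levels were 11.375 to 11.456 on controls against 11.352 and 11.359 with siRNA 2. For small nucleolar RNAs they were 9.764 to 9.851 against 9.725 and 9.699. For mitochondrial ribosomal proteins they were 10.619 to 10.644 against 10.554 and 10.584. Most of these genes are brighter than the median gene, though 11 of the 51 small nucleolar RNAs are not. With the median of each gene's own bin subtracted, the family medians were -0.037 for the proteasome, -0.028 and -0.019 for the mitochondrial and cytosolic ribosomal proteins, -0.020 for the initiation factors and -0.056 for the small nucleolar RNAs, so smaller and on the same side. All 5 kept their sign in each of the 17 alternatives. At an unadjusted p under 0.05, 10 of 77 mitochondrial ribosomal protein genes and 8 of 51 small nucleolar RNA genes were lower. The counts were 2 of 40 for the proteasome, 1 of 60 for cytosolic ribosomal proteins and 1 of 49 for initiation factors. In all 5 families 0 genes were higher at an unadjusted p under 0.05, beside 3.52% lower and 2.56% higher over all genes at that threshold. Bright genes had a larger share lower, with 145 of the 1994 genes in bin 8.

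Other families stood apart from the controls on 1 array. Of 44 collagen genes 40 were higher with a median of 0.092, but it was 0.165 on siRNA 2 replicate 1 and 0.006 on replicate 2. The 19 Wnt ligands (0.151 and 0.032), 38 Hox cluster genes (0.086 and 0.019), 52 keratins (0.139 and -0.007) and 21 Sox genes (0.095 and -0.001) showed the same pattern. Bin-corrected medians were 0.078 for collagens, 0.066 for Wnt ligands, 0.026 for Hox genes, 0.025 for keratins and 0.023 for Sox genes. Collagens, Wnt ligands and Hox genes kept their sign in each of the 17 alternatives, while keratins changed it in 2 and Sox genes in 3. The siRNA 1 medians were 0.105 for collagens, 0.081 for Wnt ligands, 0.054 for Hox genes, 0.062 for keratins and 0.050 for Sox genes. The 1027 olfactory receptor genes, which stem cells are not known to use, had a median of 0.026, with 0.046 on replicate 1 and -0.001 on replicate 2. Krüppel-like factors went opposite ways on the 2 arrays, at -0.073 and 0.048. The 675 long noncoding RNA genes had 71.7% higher, with medians of 0.088 and 0.008.

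**Figure D5:**
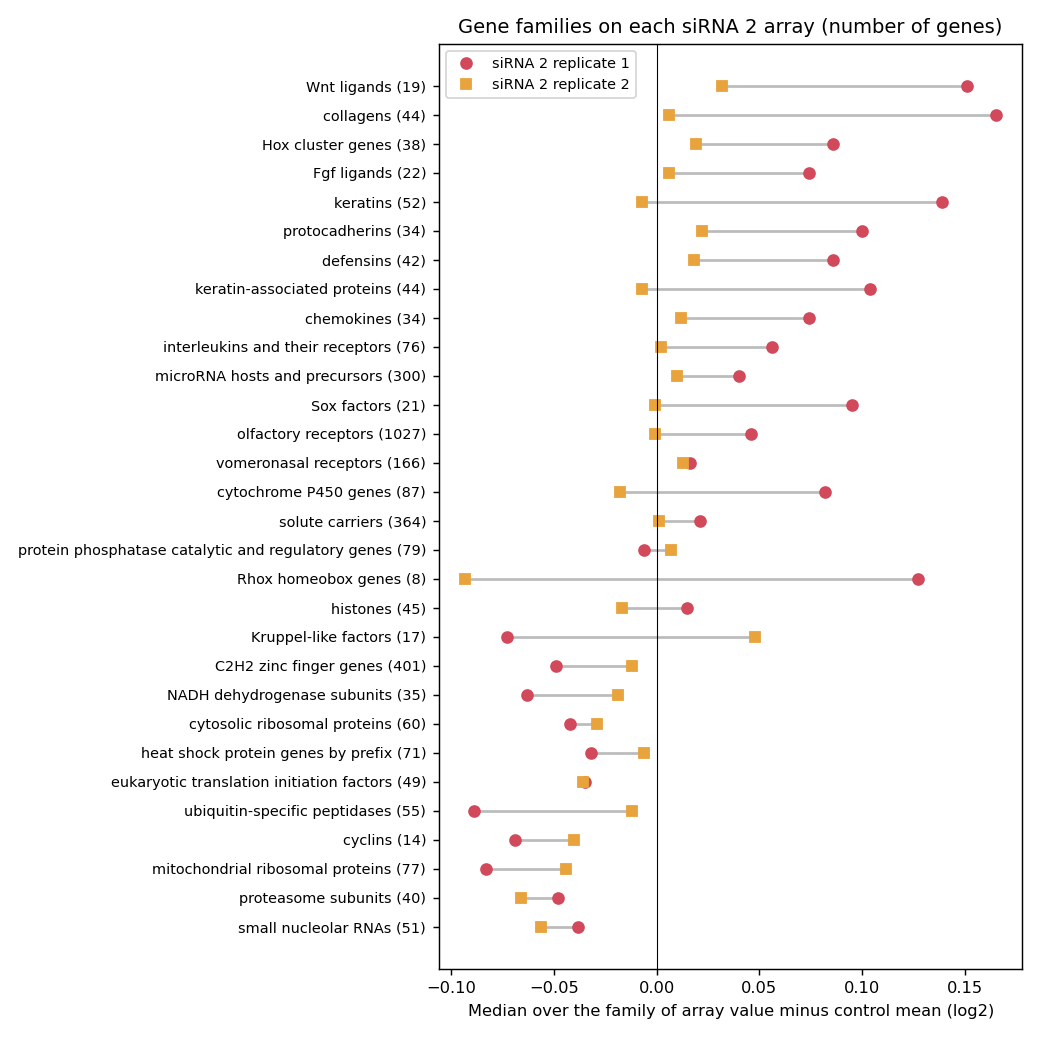
Median over each gene family of the array value minus the control mean (log2), for siRNA 2 replicate 1 (circles) and replicate 2 (squares), with the number of genes in brackets. Proteasome, ribosomal protein, initiation factor and small nucleolar RNA families lie below 0 on both arrays, while collagens, keratins and Wnt ligands lie far above 0 on replicate 1 and near 0 on replicate 2.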

How the data were processed

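RNA of each R1 stem cell sample went onto a single Affymetrix array. The authors deposited log2 values per probe set and used RMA, per the submitters' processing notes; its version, the software and the build are not stated there. RMA pulls the distributions of arrays together, so a difference shared by most genes would not show. Among 28815 probe sets, the platform table pairs 21780 with a single gene symbol, 1605 with more than one and 5430 with no symbol. Each of 19935 genes was read from its brightest such probe set, by mean over all 8 arrays. RefSeq held the gene identifier of 21689 probe sets, and 0 symbols changed.

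Limma (version 3.58.1, R 4.3.3) estimated group means from the 8 arrays together (lmFit, eBayes), with two-sided tests adjusted by Benjamini-Hochberg over all genes. The fit was tested on simulated data first. Named genes were the 12 per direction with the smallest p (none was called) among annotated genes brighter than the median gene and with both siRNA 2 arrays outside the control range, the 5 per direction with the largest difference, the calcineurin subunits and up to 4 per list. The 33 lists and 30 symbol families are described by counts and medians, with no set test. Members, lists and rules were chosen with earlier results of these data known. Python 3.11.15 made the tables and plots. The number of arrays limits the precision.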

Additional observations from a re-analysis of the deposited data

How the results depend on the processing

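The alternatives repeated the quantile normalization, centred arrays on their medians, kept genes above the median gene, used trended and robust moderation or array weights, took every probe set of a gene or the mean, fitted the compared groups alone, added a replicate block, or left out 1 array; an array's lower quartile as a covariate and the brightness bins were chosen after seeing the data. Limma called 0 genes against control in each. The count at an unadjusted p under 0.05 was 1211, 1939 with array weights, 2295 with the compared groups alone and 579 to 1979 when an array was left out. The labels name no pairing of same-numbered arrays. Deviations from the group means correlated at 0.072 and 0.219 between same-numbered control and siRNA 2 arrays, and at -0.547 and -0.522 between siRNA 1 and siRNA 2. With 2 siRNA 2 arrays the deviations mirror each other, so these values cannot exclude a pairing. The replicate block gave a count of 890. Between the siRNAs 3 genes were called with trended and robust moderation, and 0 in the other fits, the replicate block included. The Ppp3cb difference stayed between 0.439 and 0.570. Of 153 named genes 2 changed sign in any of 18 alternatives: Ppp3ca (-0.176 to 0.046 when an array was left out) and Ppp3cc (-0.105 to 0.054, and 0.004 with the covariate). Both turned without siRNA 2 replicate 1, and the cause was not tested. The count leaves out Cog1, which the rule also names. Its difference was 0.08, and siRNA 2 replicate 1 read 10.473, just below the control mean of 10.488. The sign of Cog1 therefore also turns without siRNA 2 replicate 2. Where a siRNA 2 array is left out, the other is assumed to vary like the remaining groups. Of 396 list medians under the alternatives, 46 moved by more than the spread between arrays.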
